A study of Mus musculus with 4 samples.

Results

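The mouse genes described here are the orphan receptors with Gpr symbols and the adhesion receptors with Adgr symbols, taken from primary bone marrow-derived macrophages. Members were all rows whose gene symbol starts with Gpr followed by a digit, or with Adgr followed by a letter, which gave 59 of the 17194 genes in the count table. The lowest value in that table was 1, so genes without reads in any library are absent from it. Members, their rankings and the shares over all genes are thus limited to genes counted in all 4 libraries. Of these, 42 carry a Gpr symbol and 17 an Adgr symbol. Polyadenylated RNA was sequenced from macrophages that had received an siRNA against Hells, a chromatin remodelling ATPase (siHells, 2 libraries), and from macrophages with a control siRNA (siControl, 2 libraries). Cells of both groups had been given RANKL, the cytokine that drives macrophages towards osteoclasts, for 2 days. The labels state no mouse strain, age or sex, and they name neither the number of siRNA sequences nor the delivery method.

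G protein-coupled receptors cross the membrane 7 times and pass signals from outside the cell to heterotrimeric G proteins, which act on adenylyl cyclase or phospholipase C. Receptors with a Gpr symbol were numbered as they were cloned, before a ligand was known, and many have since been matched to lipids, metabolites or protons, while some Gpr symbols belong to proteins of the Golgi or lysosome that are not classical receptors. Adhesion receptors have a long extracellular region that binds matrix or neighbouring cells and is cut from the membrane part at an autoproteolysis site, leaving a tethered agonist. Macrophages are known for several of them, among them F4/80 (Adgre1) and CD97 (Adgre5). Osteoclasts form by fusion of such cells and dissolve bone mineral with acid, a setting in which proton-sensing receptors have been studied.

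Library totals were 55642819 and 55012697 counts in siHells and 53502523 and 48873635 counts in siControl, and 15651 genes passed the filter on low counts. Hells itself, the siRNA target, had counts of 823 and 785 in siHells and of 1613 and 1501 in siControl, 1.99-fold lower in siHells (log2 fold change of siHells over siControl -0.99, SE 0.068, adjusted p = 5.96e-09, edgeR's quasi-likelihood test). Macrophage markers were abundant in all 4 libraries, and 7 of 8 were higher and 1 lower in siHells, with summed levels of 7708 and 7477 CPM (counts scaled for library size after TMM normalisation) in siHells and 4177 and 4191 CPM in siControl. All 8 osteoclast markers were lower in siHells, with sums of 1240 and 1201 CPM in siHells and 8249 and 8315 CPM in siControl. Stromal markers were present too: 7 of the 9 in the table were higher in siHells and 1 was lower, with sums of 1740 and 1707 CPM in siHells and 925 and 946 CPM in siControl. Of the 7 neutrophil markers in the table, 4 were lower, with smaller sums of 385 and 362 CPM in siHells and 428 and 434 CPM in siControl. Of 5 dendritic cell markers, 2 were higher (Flt3 and Zbtb46) and 2 were lower (H2-Aa and Itgax), with sums of 12.1 and 11.9 CPM in siHells and 74.0 and 79.0 CPM in siControl. Of 3 T and NK cell markers, Cd4 and Trac were lower, with sums of 27.8 and 28.0 CPM in siHells and 76.1 and 71.4 CPM in siControl. All 3 erythroid and megakaryocyte markers in the table were higher, with sums of 163 and 166 CPM in siHells and 53.6 and 49.0 CPM in siControl. The T cell markers Cd3e, Cd3d and Cd8a and the B cell markers Cd79a, Ms4a1 and Pax5 were not analysed here. The part of these shifts in the changes of the receptors was not tested. In bulk RNA, fewer cells of a type and less RNA per cell cannot be told apart. Nothing in the labels says that the 2 libraries of a group came from separate cultures or animals, so each p-value reflects no more than the spread among these 4 libraries, which may be technical.

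Many of the orphan and adhesion receptors changed, and by large factors, in both directions. Among the 53 members that passed the count filter, 21 were higher and 17 were lower in siHells at an adjusted p under 0.05 (edgeR, Benjamini-Hochberg over all genes tested), and 15 were not called. Over all genes tested the same call was made for 58.5% of genes, 29.0% higher and 29.5% lower, so a call as such was common. A call with at least a 2-fold difference was made for 26 members, 15 higher and 11 lower, against 12.3% of all genes, 6.75% higher and 5.52% lower. The median log2 fold change was 0.0017 over the members and -0.0043 over all genes, while the median absolute log2 fold change was 0.94 over the members and 0.34 over all genes. The 63 tested receptors without a Gpr or Adgr symbol, listed further below, were close to the members. Of these, 42.9% were called at 2-fold or more, beside 49.1% of the members, and their median absolute log2 fold change was 0.94. The lowest library of 1 group lay above the highest of the other for 45 of the 53 members, and for 78.5% of all genes.

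Some members passed the count filter through 1 group alone, which favours a difference. Gpr63, Gpr179, Gpr31b and Gpr31c reached its level in siHells alone, and Adgrf1, Adgrf3, Adgrv1 and Gpr171 in siControl alone. Gpr83 reached it in the second library of each group. The filter's level was reached in all 4 libraries by 44 members, of which 17 were higher and 15 lower, and 20 of the 44 were called with at least a 2-fold difference. The share of all genes called under this rule was not computed, so these counts have no background to be read against. That rule can remove genes that fell far. With a floor on the mean of the 4 libraries instead, at least 1 CPM, which a gene can still pass through its higher group, 40 members remained, of which 16 were higher and 16 were lower in siHells. That made 32 of 40 called, against 66.4% of all genes with such a mean. A call with at least a 2-fold difference was made for 20 of the 40, against 10.7% of those genes.

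**Figure D1:**
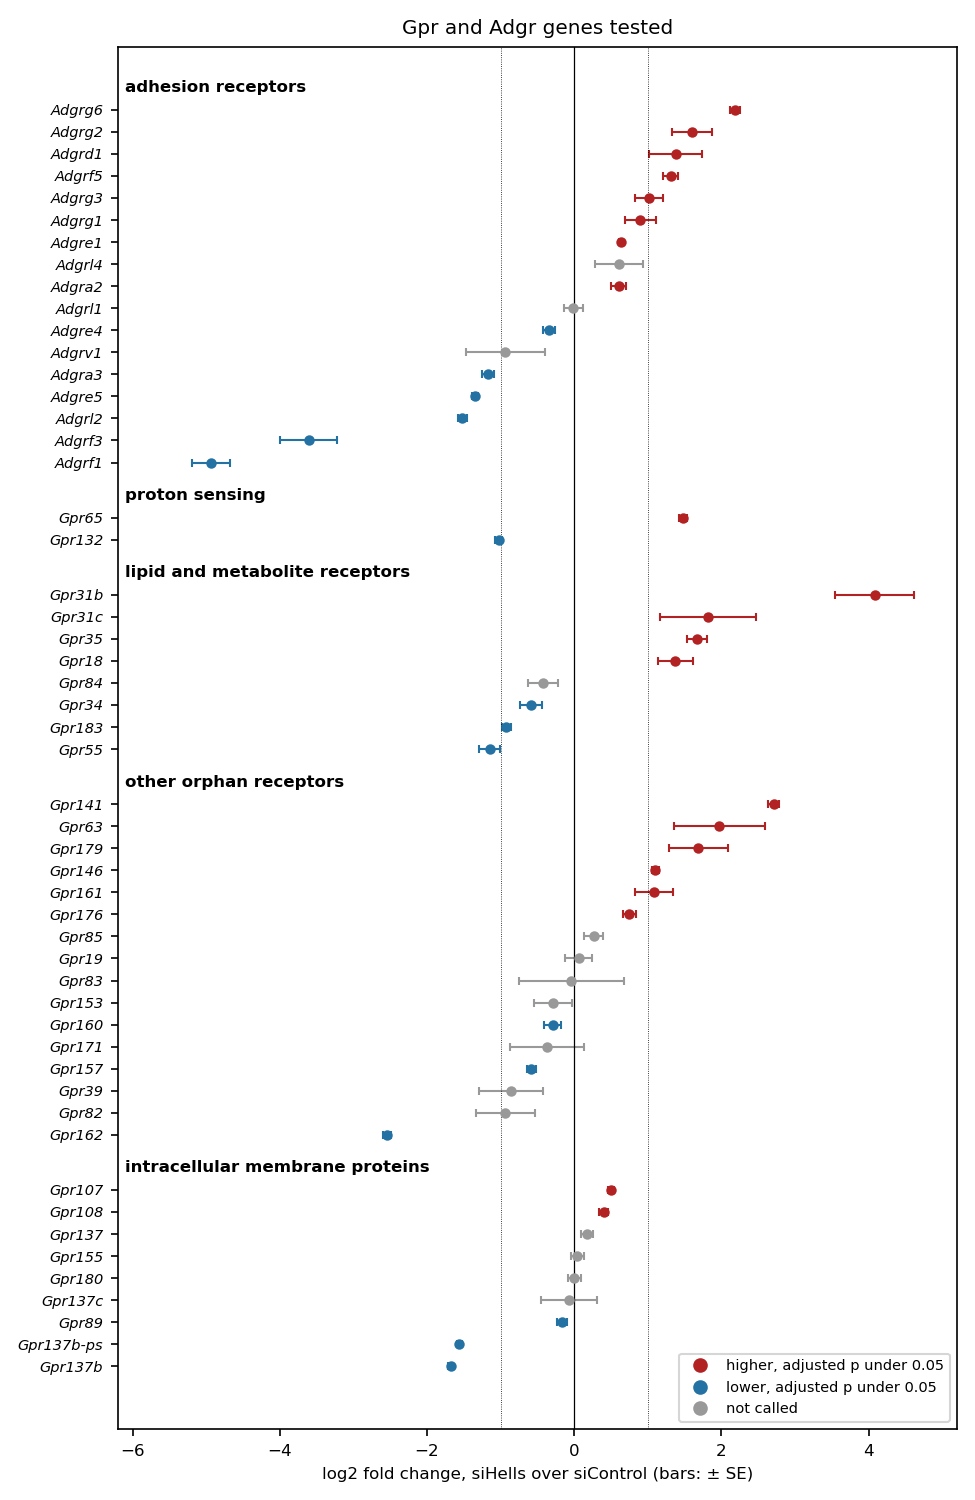
Log2 fold change (siHells over siControl, horizontal axis) with its standard error (bars) for 52 of the 53 tested members, grouped by role and coloured by call, with dotted lines at a 2-fold difference. Every class holds called members on both sides of 0, and the range runs from -4.93 for Adgrf1 to 4.08 for Gpr31b.

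Levels of the members spanned more than 4 orders of magnitude when CPM was divided by the length of the exon union in kilobases, and Adgre1 led in both groups with 391 CPM per kb in siHells and 253 CPM per kb in siControl. Behind Adgre1, the order of the levels differed between the groups. Gpr65 was next in siHells with 52.9 CPM per kb and had 19.0 CPM per kb in siControl. Gpr137b-ps had 21.7 CPM per kb in siHells and was next to Adgre1 in siControl with 64.2 CPM per kb. Adgre5 had 22.7 CPM per kb in siHells and 57.8 CPM per kb in siControl. The level of Gpr137b was 16.7 CPM per kb in siHells and 53.5 CPM per kb in siControl, and that of Gpr132 was 15.7 CPM per kb in siHells and 31.9 CPM per kb in siControl. Gpr108 had 24.9 CPM per kb in siHells, behind Gpr65, and 18.9 CPM per kb in siControl. In siHells, Gpr108, Adgre5, Gpr137b-ps, Gpr137b and Gpr132 thus lay between 15.7 and 24.9 CPM per kb. Adgrv1, which encodes the very large receptor of hair cell stereocilia, was the lowest, with 0.0060 CPM per kb in siHells and 0.012 CPM per kb in siControl.

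Summed over all 59 members, the level was nearly equal in the groups, at 2367 and 2386 CPM in siHells and 2430 and 2445 CPM in siControl. Adgre1 alone made up 53.1% and 53.4% of this sum in siHells and 33.1% and 34.0% in siControl. Without Adgre1 the sum was 1109 and 1112 CPM in siHells, below the 1625 and 1614 CPM in siControl. The near balance of the full sum therefore held a higher Adgre1 beside a lower total of the others.

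**Figure D2:**
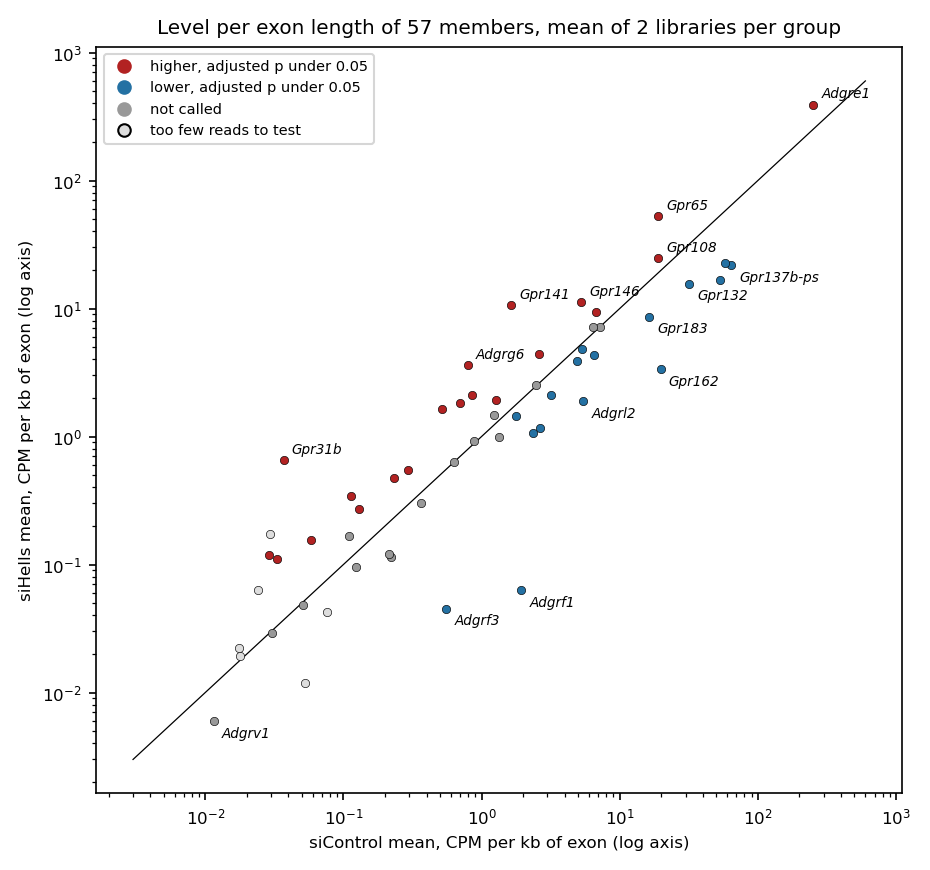
Mean level of the members in CPM per kilobase of exon union, siHells on the vertical and siControl on the horizontal axis, both logarithmic, for 57 of the 58 members with a known exon length, coloured by call, with the line marking equal levels. Adgre1 stands apart at the top (391 in siHells, 253 in siControl), Gpr65 lies above the line (52.9 in siHells, 19.0 in siControl), and Gpr137b-ps lies below it (21.7 in siHells, 64.2 in siControl).

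All 17 adhesion receptors in the table passed the filter, and 8 were higher and 6 lower in siHells, with 5 in each direction at 2-fold or more, beside 58.5% of all genes called and 12.3% called at 2-fold or more. Their median log2 fold change was 0.60, and for 16 of the 17 the 2 groups did not overlap, beside 78.5% of all genes. The summed level of the adhesion receptors was 1483 and 1499 CPM in siHells and 1182 and 1209 CPM in siControl, most of it Adgre1.

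Adgre1 encodes the F4/80 surface antigen by which mouse macrophages are recognised, and it lies on chromosome 17 (GRCm38, 57358691 to 57483527, plus strand). Its counts were 68159 and 68353 in siHells and 44244 and 41564 in siControl, so both siHells libraries lay above both siControl libraries. At 1266 ± 11.7 CPM in siHells and 818 ± 18.1 CPM in siControl (SD, n = 2 each), the difference was 0.63 on the log2 scale (SE 0.027, adjusted p = 1.86e-11, edgeR). Adgre4, another receptor of the EGF-like subfamily of myeloid cells, moved the other way, with 735 and 728 counts in siHells and 897 and 903 counts in siControl (log2 fold change -0.34, adjusted p = 0.0025, edgeR).

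Adgre5, which encodes the leukocyte receptor CD97, fell as well. It had 4730 and 4478 counts in siHells and 11948 and 10869 counts in siControl, or -1.35 on the log2 scale (SE 0.037, adjusted p = 1.00e-13, edgeR) with no overlap of the groups. Of the exonic bases of Adgre5, 895 (23.8%) also belong to Ddx39 on the opposite strand, and the sources used here do not state whether counting used the strand, so reads there cannot be assigned with certainty. Ddx39 itself had 2534 and 2396 counts in siHells and 3659 and 2964 counts in siControl. The 3 EGF-like receptors thus went in different directions, Adgre1 higher and Adgre5 and Adgre4 lower.

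All 4 receptors of the G subfamily in the table rose, beside 29.0% of all genes tested called higher. Adgrg6, encoding GPR126, which Schwann cells need for myelination, had 2446 and 2316 counts in siHells and 522 and 495 counts in siControl (log2 fold change 2.19, SE 0.070, adjusted p = 5.87e-13, edgeR). The siHells libraries were more than 4 times as high as the siControl libraries, a 4.56-fold difference. Adgrg2, a receptor known from the epididymis, had 108 and 88 counts in siHells and 34 and 29 counts in siControl (log2 fold change 1.59, adjusted p = 1.23e-04, edgeR). Adgrg3, a receptor of granulocytes, had 166 and 185 counts in siHells and 94 and 75 counts in siControl (log2 fold change 1.01, adjusted p = 2.83e-04, edgeR). Adgrg1, encoding GPR56, a receptor for collagen III, had 158 and 160 counts in siHells and 71 and 95 counts in siControl (log2 fold change 0.90, adjusted p = 0.0017, edgeR). In none of the 4 genes did the groups overlap, beside 78.5% of all genes tested without overlap.

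Within the F subfamily the members moved apart. Adgrf1, encoding GPR110, a receptor for the lipid synaptamide, had the largest fall of all members, with 7 and 19 counts in siHells and 391 and 388 counts in siControl. Its siControl level was 30.8-fold higher by the ratio of summed counts per library size (exact binomial 95% interval 20.8 to 47.4), and the fitted log2 fold change was -4.93 (SE 0.26, adjusted p = 2.32e-10, edgeR). This value depends on the small siHells counts: without the second siHells library it was -5.82, and without the first it was -4.38. Adgrf3, an orphan receptor, had 6 and 10 counts in siHells and 114 and 79 counts in siControl, a siControl level 12.4-fold higher (7.44 to 22.1) with an adjusted p of 1.06e-06 (edgeR). Both genes were near the detection limit in siHells and passed the count filter through siControl alone, which favours a fall. Adgrf5, encoding GPR116, a regulator of lung surfactant, instead had 957 and 1090 counts in siHells and 429 and 375 counts in siControl (log2 fold change 1.31, SE 0.098, adjusted p = 1.51e-08, edgeR). Intervals of count ratios given here cover counting error only.

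Among the latrophilins, Adgrl2 fell, encoding a receptor for teneurins and FLRT proteins, with 1385 and 1509 counts in siHells and 4281 and 3797 counts in siControl (log2 fold change -1.52, SE 0.055, adjusted p = 2.73e-12, edgeR). Adgrl1, whose protein also binds teneurins, had 304 and 280 counts in siHells and 298 and 275 counts in siControl and was not called (log2 fold change -0.01). Adgrl4, an endothelial receptor, had 44 and 39 counts in siHells and 28 and 25 counts in siControl and was not called either (adjusted p = 0.126, edgeR). The A subfamily split: Adgra3 had 534 and 492 counts in siHells and 1153 and 1105 counts in siControl (log2 fold change -1.18, adjusted p = 7.88e-09, edgeR). Its relative Adgra2, encoding the Wnt7 co-receptor GPR124, had 612 and 585 counts in siHells and 394 and 372 counts in siControl (log2 fold change 0.60, adjusted p = 8.40e-05, edgeR). Adgrd1, encoding the orphan receptor GPR133, was called higher with 55 and 84 counts in siHells and 36 and 16 counts in siControl (adjusted p = 0.0040, edgeR). Its log2 fold change of 1.38 became 0.98 without the second siControl library and 2.00 without the first. Adgrv1 had 10 and 6 counts in siHells and 15 and 15 in siControl and was not called (adjusted p = 0.149, edgeR).

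**Figure D3:**
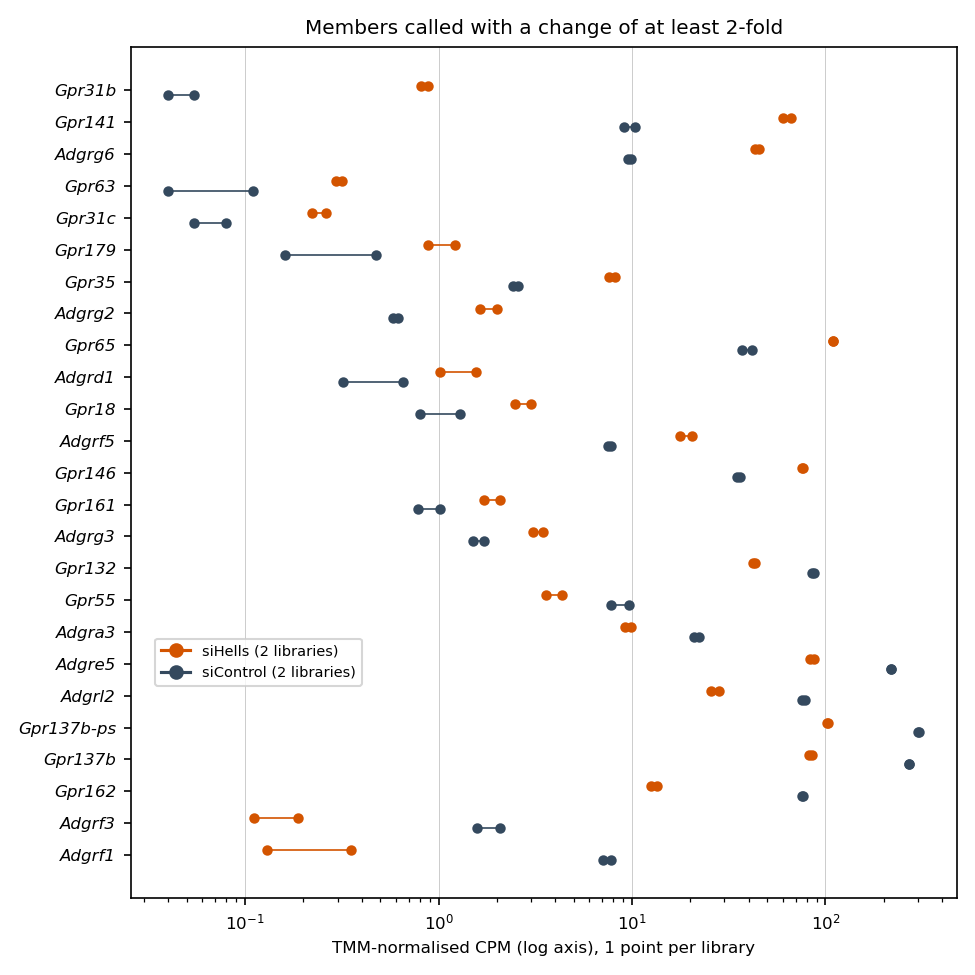
Level of 25 of the 26 members called with at least a 2-fold difference, in TMM-normalised CPM on a log axis, with 1 point per library and a line joining the 2 libraries of a group (siHells above siControl). The genes run from Gpr31b (highest fold in siHells) at the top to Adgrf1 (lowest) at the bottom. In each of them the siHells points lie apart from the siControl points, which the choice by call and fold favours. Over all genes tested, the groups did not overlap for 78.5%.

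Of the receptors placed with the acid sensors, Gpr65 and Gpr132 moved in opposite directions, each by at least 2-fold. Gpr65, encoding the Gs-coupled acid sensor TDAG8 (chromosome 12, 98268635 to 98276644, plus strand), had 5925 and 5872 counts in siHells and 2028 and 2091 counts in siControl. Both siHells libraries were far above both siControl libraries, or 1.48 higher on the log2 scale (SE 0.053, adjusted p = 2.50e-12, edgeR). Gpr132, encoding a receptor that is placed with the acid sensors and also responds to oxidised fatty acids, had 2335 and 2251 counts in siHells and 4820 and 4285 counts in siControl (log2 fold change -1.03, SE 0.046, adjusted p = 3.34e-11, edgeR). On the level per kilobase, Gpr65 (52.9) was above Gpr132 (15.7) in siHells, while in siControl Gpr132 (31.9) was above Gpr65 (19.0). An antisense transcript overlaps 24.7% of the exonic bases of Gpr65, where reads may be shared.

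Receptors matched to lipids and metabolites comprised 9 members, of which 8 were tested, 4 higher and 3 lower, with a median log2 fold change of 0.48. Of the 8, 87.5% were called, beside 58.5% of all genes tested. Gpr35, encoding a receptor for tryptophan metabolites, had 414 and 440 counts in siHells and 133 and 129 counts in siControl (log2 fold change 1.66, SE 0.14, adjusted p = 5.46e-08, edgeR). Gpr18, for whose product N-arachidonylglycine has been proposed as a ligand, had 163 and 133 counts in siHells and 71 and 40 counts in siControl (log2 fold change 1.37, adjusted p = 1.63e-04, edgeR). In both genes the lowest siHells library was above the highest siControl library, and the groups did not overlap for 78.5% of all genes tested. Gpr183, encoding the oxysterol receptor EBI2 that guides osteoclast precursors as well as lymphocytes, had 1316 and 1368 counts in siHells and 2483 and 2469 counts in siControl (log2 fold change -0.92, SE 0.062, adjusted p = 4.48e-09, edgeR). Gpr55, encoding a receptor for lysophosphatidylinositol, had 194 and 232 counts in siHells and 528 and 391 counts in siControl (log2 fold change -1.15, adjusted p = 4.86e-06, edgeR). Gpr34, encoding a receptor for lysophosphatidylserine, was called lower with 197 and 280 counts in siHells and 351 and 346 counts in siControl (log2 fold change -0.59, adjusted p = 0.0044, edgeR), and without the first siHells library the log2 fold change was -0.34 (adjusted p = 0.0635). Gpr84, encoding a receptor for medium-chain fatty acids, had 102 and 84 counts in siHells and 131 and 112 counts in siControl and was not called (adjusted p = 0.0839, edgeR), and an antisense transcript overlaps 39.5% of its exonic bases.

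The mouse Gpr31 genes were scarcely detected in siControl. Gpr31b had 44 and 47 counts in siHells and 3 and 2 counts in siControl, a ratio of 17.7 (exact binomial 95% interval 7.32 to 55.9) and an adjusted p of 8.64e-06 (edgeR). It was the largest rise among the members, at a level of 0.844 CPM in siHells. Gpr31b and Gpr31c passed the count filter through siHells alone, which favours a rise. Gpr31c had 12 and 14 counts in siHells and 3 and 4 counts in siControl, a ratio of 3.62 (1.53 to 9.87). Its adjusted p of 0.0264 (edgeR) became 0.175 without the first siControl library, 0.0776 without the second, and 0.100 without the second siHells library. Gpr31a, annotated as a processed pseudogene, was not tested and had 12 and 6 counts in siHells and 2 and 1 counts in siControl, a ratio of 5.84 with an interval of 1.71 to 31.0. Of all 100-base windows of Gpr31b, 27.6% occur in Gpr31a as well, so reads of these genes cannot be fully separated.

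Of the other orphan receptors, 21 were in the table and 16 were tested, 6 higher and 3 lower, with a median log2 fold change of 0.01. The share called was 56.25%, beside 58.5% of all genes tested. Gpr141, encoding an orphan receptor of myeloid cells (chromosome 13, 19749682 to 19824257, minus strand), had 3270 and 3577 counts in siHells and 500 and 518 counts in siControl. This was the largest rise among members with a mean of at least 1 CPM, 6.54-fold (log2 fold change 2.71, SE 0.077, adjusted p = 1.33e-13, edgeR). Gpr146, encoding an orphan receptor known from cholesterol metabolism in liver, had 4171 and 4044 counts in siHells and 1994 and 1741 counts in siControl (log2 fold change 1.10, SE 0.049, adjusted p = 3.18e-11, edgeR). Gpr176, an orphan receptor of the circadian pacemaker, rose with a log2 fold change of 0.75 (913 and 941 counts in siHells, 589 and 487 counts in siControl, adjusted p = 2.40e-06, edgeR). Gpr161, encoding a ciliary receptor that restrains Hedgehog signalling, had 113 and 92 counts in siHells and 43 and 51 counts in siControl (log2 fold change 1.08, adjusted p = 0.0018, edgeR). None of these 4 genes had overlapping groups, beside 78.5% of all genes tested without overlap.

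Among the orphan receptors with a Gpr symbol outside the acid, lipid and metabolite classes, the largest fall was that of Gpr162 (chromosome 6, 124858444 to 124863983, minus strand). It had 727 and 672 counts in siHells and 4142 and 3810 counts in siControl, 12.97 ± 0.627 CPM in siHells and 75.8 ± 0.552 CPM in siControl (SD, n = 2 each). That was a 5.84-fold fall (log2 fold change -2.55, SE 0.059, adjusted p = 1.34e-14, edgeR). Gpr162 lies 708 bases from Cd4 on the same strand, a neighbour looked up after its values were seen, and Cd4 had 1457 and 1466 counts in siHells and 4050 and 3419 counts in siControl (log2 fold change -1.39, adjusted p = 7.93e-12, edgeR). Both neighbours were lower in siHells, and whether reads run across the gap was not tested. Gpr157, an orphan receptor of cilia, had 1135 and 1159 counts in siHells and 1724 and 1619 counts in siControl (log2 fold change -0.58, adjusted p = 1.09e-06, edgeR). Gpr160 had 334 and 325 counts in siHells and 392 and 394 counts in siControl, and its call (log2 fold change -0.29, adjusted p = 0.0397, edgeR) was lost in DESeq2 (adjusted p = 0.128), without the second siControl library (-0.22, adjusted p = 0.231) and without either siHells library (adjusted p = 0.0834 and 0.113).

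Some calls rested on few counts, and Gpr179 and Gpr63 passed the count filter through siHells alone. Gpr179, a class C receptor of retinal bipolar cells, had 48 and 65 counts in siHells and 26 and 8 counts in siControl (adjusted p = 0.0023, edgeR), and its log2 fold change of 1.69 became 1.15 without the second siControl library and 2.69 without the first. Gpr63 had 16 and 17 counts in siHells and 6 and 2 counts in siControl, a ratio of 4.02 (1.82 to 10.1). Its log2 fold change of 1.97 (adjusted p = 0.0133, edgeR) became 1.47 without the second siControl library, where the call was lost (adjusted p = 0.122), and 2.86 without the first. Gpr85, another orphan receptor of the brain, was not called (log2 fold change 0.27, adjusted p = 0.0878, edgeR). The remaining orphan receptors that were not called were Gpr82 (-0.94), the zinc sensor Gpr39 (-0.86), Gpr171 (-0.37), Gpr153 (-0.29), Gpr83 (-0.04) and Gpr19 (0.06), given as log2 fold changes. Of these, Gpr39 was called without the second siControl library (log2 fold change -1.29, adjusted p = 0.0171, edgeR), and 39.9% of its exonic bases overlap Lypd1 on the opposite strand. Gpr27, Gpr173, Gpr149, Gpr135 and Gpr21 did not pass the filter, and their counts ran from 2 to 28 in siHells and from 2 to 14 in siControl.

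Proteins of the Golgi and lysosome that carry Gpr symbols made up 9 members, all tested, of which 2 were higher and 3 were lower. That made 55.6% called, beside 58.5% of all genes tested. Gpr137b, encoding a lysosomal membrane protein tied to mTORC1 signalling (chromosome 13, 13357620 to 13394014, minus strand), had 4461 and 4588 counts in siHells and 14769 and 13444 counts in siControl (log2 fold change -1.68, SE 0.036, adjusted p = 6.22e-15, edgeR). Its annotated pseudogene Gpr137b-ps (chromosome 13, 12615057 to 12650388, minus strand) had 5541 and 5517 counts in siHells and 16819 and 14988 counts in siControl (log2 fold change -1.56, SE 0.034, adjusted p = 7.10e-15, edgeR). The 2 rows fell alike, by 3.20-fold and 2.95-fold. Of the 100-base windows of Gpr137b, 16.6% occur in Gpr137b-ps, and 17.1% of those of Gpr137b-ps occur in Gpr137b, so part of the reads could be counted to either. With both rows summed to 1 gene, a setting chosen after seeing the data, the log2 fold change was -1.62. The relative Gpr137 had 1398 and 1231 counts in siHells and 1268 and 1007 counts in siControl and was not called (log2 fold change 0.17, adjusted p = 0.0834, edgeR), though it was called without the first siControl library (adjusted p = 0.025) and without the second siHells library (adjusted p = 0.0085). Gpr137c (-0.07) was not called.

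Gpr107 and Gpr108, encoding membrane proteins of the Golgi, rose slightly. Gpr107 had 6600 and 6430 counts in siHells and 4737 and 4266 counts in siControl (log2 fold change 0.49, SE 0.039, adjusted p = 2.66e-08, edgeR). Gpr108 had 3987 and 3691 counts in siHells and 3123 and 2557 counts in siControl (log2 fold change 0.40, SE 0.056, adjusted p = 2.06e-05, edgeR). In both, the groups did not overlap, beside 78.5% of all genes tested without overlap. Gpr89, encoding the Golgi pH regulator, had 1392 and 1380 counts in siHells and 1520 and 1503 counts in siControl, and its small difference (log2 fold change -0.16, adjusted p = 0.0400, edgeR) was not called in DESeq2 (adjusted p = 0.114), without the second siControl library (-0.10, adjusted p = 0.344) or without either siHells library (adjusted p = 0.0745 and 0.0719). Pdzk1, on the opposite strand, overlaps 24.8% of its exonic bases. Gpr155, encoding the lysosomal cholesterol sensor LYCHOS (log2 fold change 0.04), and Gpr180 (0.0017) were not called. The summed level of the 9 was 461 and 458 CPM in siHells and 800.0 and 784 CPM in siControl, and Gpr137b and Gpr137b-ps account for most of the gap.

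Neighbouring receptor genes were compared next, since the table holds 4 pairs of members on the same chromosome and strand within a short distance. Adgrf1 and Adgrf5 lie 35713 bases apart on chromosome 17 and moved in opposite directions, with log2 fold changes of -4.93 and 1.31. Gpr183 and Gpr18 lie 36769 bases apart on chromosome 14 and did so too, with -0.92 for Gpr183 and 1.37 for Gpr18. Adgrg1 and Adgrg3, 3474 bases apart on chromosome 8, both rose. Gpr34 and Gpr82, 20504 bases apart on the X chromosome, had -0.59 and -0.94, of which Gpr34 alone was called.

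**Figure D4:**
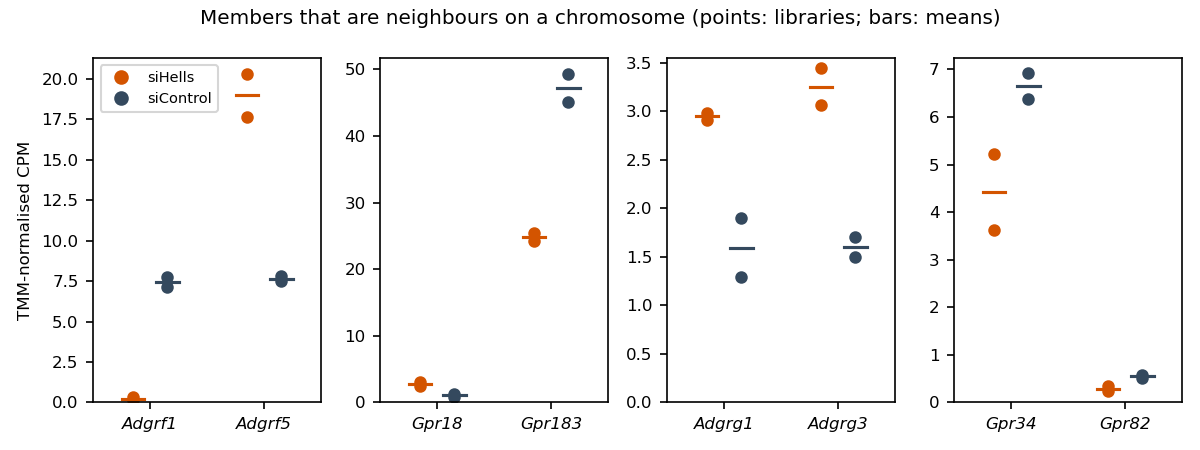
TMM-normalised CPM (linear axis from 0, 1 point per library, bars at the group means) for the 4 neighbouring pairs of members, siHells left of siControl. The members of the Adgrf1 and Adgrf5 pair and of the Gpr183 and Gpr18 pair move in opposite directions, while Adgrg1 and Adgrg3 are both higher in siHells.

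Hells is known as a factor that promotes DNA methylation, which falls on cytosines followed by guanine (CpG), so the promoters of the oppositely moving neighbours are shown with their CpG sites in capitals. Each is the 250 bases before a RefSeq transcript start, 5′ to 3′ on the strand of the gene, from the GRCm38.p6 build. The Adgrf1 window (chr17:43270097-43270346, plus strand) holds 2 CpG sites and the Adgrf5 window (chr17:43360181-43360430, plus strand) holds 5.
Adgrf1: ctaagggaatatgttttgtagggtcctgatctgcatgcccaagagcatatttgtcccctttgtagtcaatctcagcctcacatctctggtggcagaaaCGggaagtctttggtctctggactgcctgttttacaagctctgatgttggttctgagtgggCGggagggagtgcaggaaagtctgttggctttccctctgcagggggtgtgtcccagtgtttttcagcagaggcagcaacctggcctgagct
Adgrf5: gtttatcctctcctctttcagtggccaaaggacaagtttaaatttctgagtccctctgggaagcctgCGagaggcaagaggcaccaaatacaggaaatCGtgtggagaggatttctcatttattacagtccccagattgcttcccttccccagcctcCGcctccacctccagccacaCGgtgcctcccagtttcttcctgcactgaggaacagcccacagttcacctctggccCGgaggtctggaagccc
On chromosome 14, the Gpr183 window (chr14:121965194-121965443, minus strand) holds 2 CpG sites and the Gpr18 window (chr14:121915889-121916138, minus strand) holds 3.
Gpr183: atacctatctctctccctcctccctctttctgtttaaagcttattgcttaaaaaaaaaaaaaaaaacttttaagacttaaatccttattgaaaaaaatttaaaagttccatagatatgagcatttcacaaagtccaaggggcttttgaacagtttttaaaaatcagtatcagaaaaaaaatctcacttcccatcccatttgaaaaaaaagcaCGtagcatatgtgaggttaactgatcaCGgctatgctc
Gpr18: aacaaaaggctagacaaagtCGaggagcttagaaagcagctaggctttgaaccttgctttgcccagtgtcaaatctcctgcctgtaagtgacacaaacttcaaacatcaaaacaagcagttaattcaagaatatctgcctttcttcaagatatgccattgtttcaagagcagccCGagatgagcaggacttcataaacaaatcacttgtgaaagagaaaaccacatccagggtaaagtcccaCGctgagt
Another RefSeq start of Adgrf5 (chr17:43389216-43389465, plus strand), not shown, has 7 CpG sites in its window.

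The members with the largest rises, among those with a mean of at least 1 CPM, have annotated windows that differ in this respect. These windows are shown for that contrast, and which transcript start was used was not measured. Gpr141 (chr13:19824258-19824507, minus strand) has 2 CpG sites and Adgrg6 (chr10:14545037-14545286, minus strand) has 32, again in capitals.
Gpr141: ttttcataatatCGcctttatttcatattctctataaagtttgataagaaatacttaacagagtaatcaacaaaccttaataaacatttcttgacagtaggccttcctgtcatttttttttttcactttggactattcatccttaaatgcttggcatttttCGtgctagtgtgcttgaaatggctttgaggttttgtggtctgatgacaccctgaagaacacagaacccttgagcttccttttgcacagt
Adgrg6: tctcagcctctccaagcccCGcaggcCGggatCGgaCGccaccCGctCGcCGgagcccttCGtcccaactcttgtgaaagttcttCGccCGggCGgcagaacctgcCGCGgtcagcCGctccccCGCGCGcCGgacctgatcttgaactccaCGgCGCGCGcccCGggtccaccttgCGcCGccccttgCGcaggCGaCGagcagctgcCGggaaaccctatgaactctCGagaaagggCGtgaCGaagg
For the medians, only the most upstream RefSeq start of each gene was taken. Over the 43 members with a promoter entry, the median was 6 CpG sites in 250 bases with a range of 0 to 32. Over all 27025 genes with an entry, including genes outside the count table, it was also 6. Other starts of a gene can differ, and another Gpr153 window has 36 sites. The median was 4 for the 17 members that were higher, 4.5 for the 10 that were lower, 14 for the 14 that were tested and not called, and 12.5 for the 2 that were not tested. Medians by call were not computed over all genes, so these have no background to be read against. DNA methylation was not measured in these libraries, so the counts of sites are a description of the sequence.

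Motifs of 4 factors known in macrophages and osteoclasts were searched in the same windows on both strands: TGANTCA for AP-1, CACGTG for the E-box of the MiT family, GAGGAAGT for PU.1 and ACANNNTGT for the core of the glucocorticoid receptor element. Windows of members held AP-1 in 3 of 58 (5.17%), against 6.75% of all 32851 promoter windows, and the E-box in 1 of 58 (1.72%), against 6.02%. The set of all windows includes genes outside the count table. PU.1 letters stood in 4 of 58 (6.90%), against 2.44%, and those of the glucocorticoid receptor element in 5 of 58 (8.62%), against 5.84%. Of the windows with a match in called members, 3 are shown, chosen after their values were seen, with the match in capitals. The others were an AP-1 match in Gpr35, an E-box in Gpr63, and glucocorticoid receptor element letters in Gpr108 and in another start of Adgrg1. The window of the Adgrg1 start at chr8:94984149-94984398 (plus strand) has 2 AP-1 matches, and PU.1 matches stand in the window of Gpr31b (chr17:13052281-13052530, minus strand), which rose, and in that of Gpr55 (chr1:85961056-85961305, minus strand), which fell.
Adgrg1: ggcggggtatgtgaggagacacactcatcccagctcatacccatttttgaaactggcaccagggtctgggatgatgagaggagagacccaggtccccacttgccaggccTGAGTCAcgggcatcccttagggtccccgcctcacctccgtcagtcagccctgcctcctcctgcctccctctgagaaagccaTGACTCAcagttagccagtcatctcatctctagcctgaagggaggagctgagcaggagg
Gpr31b: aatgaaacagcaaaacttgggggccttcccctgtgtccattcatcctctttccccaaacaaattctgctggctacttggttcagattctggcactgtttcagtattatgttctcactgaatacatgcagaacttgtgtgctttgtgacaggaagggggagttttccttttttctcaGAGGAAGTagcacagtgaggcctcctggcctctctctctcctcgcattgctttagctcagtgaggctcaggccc
Gpr55: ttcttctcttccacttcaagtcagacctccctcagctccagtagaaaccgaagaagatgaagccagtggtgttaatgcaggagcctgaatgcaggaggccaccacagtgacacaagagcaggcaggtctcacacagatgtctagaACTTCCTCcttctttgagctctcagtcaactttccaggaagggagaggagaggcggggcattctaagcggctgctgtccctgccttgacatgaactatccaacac
A match is a description of the letters and not a measured binding site.

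Genes that signal with these receptors were described from lists of G protein subunits, RGS proteins, receptor kinases and arrestins, adenylyl cyclases and phosphodiesterases, ligands with the enzymes that make or break them, and receptors without a Gpr or Adgr symbol. Together 149 of them were tested, 65 higher and 33 lower in siHells, beside 29.0% higher and 29.5% lower over all genes. Receptor kinases and arrestins, which switch receptors off, had 9 higher and 2 lower of 12, or 91.7% called beside 58.5% of all genes tested. Arrb2, encoding beta-arrestin 2, had 16312 and 15592 counts in siHells and 8221 and 7971 counts in siControl (log2 fold change 0.94, adjusted p = 7.93e-12, edgeR). Grk5 (1.11) and the arrestin relative Arrdc3 (1.13) rose too, while Grk3 fell (-0.89).

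Of the 11 tested alpha subunits, 6 were higher and 1 lower, with a median log2 fold change of 0.10. The share called was 63.6% for these and also for beta and gamma subunits. It was 58.3% for RGS proteins, 52.9% for cyclases and phosphodiesterases, and 58.5% over all genes tested. Gnao1 had 356 and 341 counts in siHells and 139 and 101 counts in siControl (2.83-fold higher, adjusted p = 5.59e-07, edgeR), and Gna12 (0.45) and Gna11 (0.51) rose while Gna13 fell (-0.25). Beta and gamma subunits had 4 higher and 3 lower of 11, among them Gnb4, which fell with 983 and 987 counts in siHells and 2814 and 2723 counts in siControl (log2 fold change -1.53, adjusted p = 7.31e-12, edgeR), and Gnb5 (-0.84). Gng2 (0.75) and Gng10 (0.67) rose. RGS proteins, which speed the return of alpha subunits to rest, had 4 higher and 3 lower of 12, with Rgs14 (0.58) and Rgs18 (0.73) higher and Rgs2 (-0.25) and Rgs3 (-0.40) lower. Cyclases and phosphodiesterases, which make and break cyclic AMP, had 7 higher and 2 lower of 17. Adcy3 fell, with 1502 and 1447 counts in siHells and 3951 and 3756 counts in siControl (log2 fold change -1.43, adjusted p = 2.81e-12, edgeR), as did Pde2a (-0.87), while Pde4d (1.72) and Pde7b (1.27) rose.

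**Figure D5:**
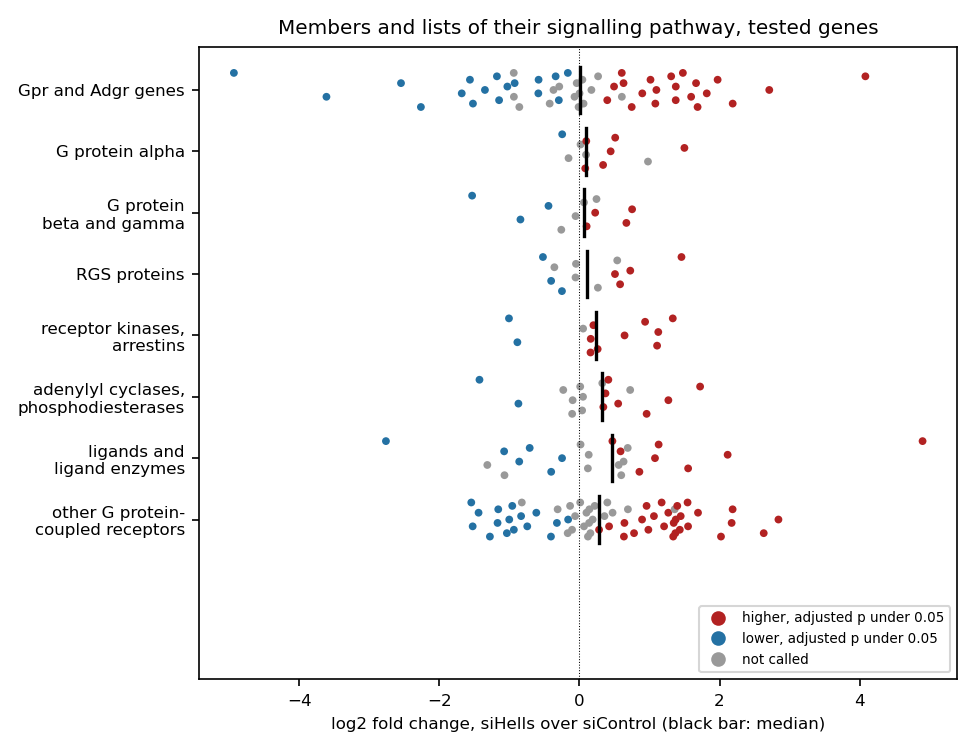
Log2 fold change (siHells over siControl) of every tested gene in the members' class and in each list of signalling partners, with 1 point per gene, coloured by call, and a bar at the median. The medians lie between 0.0017 for the members and 0.47 for ligands and ligand enzymes, and the members span from -4.93 to 4.08, while Cd55 lies at 4.90 among the ligands.

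Ligands and ligand enzymes of the member receptors had 8 higher and 6 lower of 23, with a median log2 fold change of 0.47. The share called was 60.9%, beside 58.5% of all genes tested. Cd55, encoding the complement regulator to which CD97 (Adgre5) binds, had 59774 and 62078 counts in siHells and 2093 and 1886 counts in siControl, a 29.8-fold rise (log2 fold change 4.90, SE 0.038, adjusted p = 6.90e-20, edgeR). Receptor and ligand thus moved in opposite directions, Adgre5 lower at -1.35 and Cd55 higher. For Adgrg6, whose protein binds collagen IV, Col4a1 rose with the receptor and had 6926 and 6472 counts in siHells and 2266 and 2179 counts in siControl (log2 fold change 1.55, adjusted p = 3.64e-13, edgeR). Lama2, encoding a subunit of the laminin that also binds this receptor, rose with a log2 fold change of 2.12, while Prnp, encoding the prion protein, another ligand of this receptor, fell (-0.25, adjusted p = 0.0048, edgeR). The ligands of GPR56 (Adgrg1) went against their receptor, as Tgm2 (-0.86) and Col3a1 (-0.40) fell. Flrt2 (-1.07), encoding a ligand of latrophilins, fell together with Adgrl2. For the EBI2 ligand, the oxysterol-degrading enzyme gene Hsd3b7 fell (-0.71), as did the receptor Gpr183, while Ch25h (0.69) and Cyp7b1 (-1.31), which encode the enzymes that make it, were at most 46 counts in any library and not called. Cyp27a1 (1.08), encoding another sterol hydroxylase, and Psap (0.86), encoding prosaposin, rose.

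Among 63 tested receptors without a Gpr or Adgr symbol, 27 were higher and 16 lower, 19 and 8 of them by at least 2-fold, with a median log2 fold change of 0.28. The share called was 68.25%, beside 58.5% of all genes tested. Calls with at least a 2-fold difference made up 42.9%, beside 12.3% of all genes tested and 49.1% of the members. The complement receptor gene C5ar1 (1.34), the nucleotide receptor gene P2ry6 (1.27) and the chemerin receptor gene Cmklr1 (1.45) had the smallest p-values, and all rose. Cmklr1 had 9324 and 8956 counts in siHells and 3284 and 3240 counts in siControl, a 2.72-fold difference (adjusted p = 3.25e-13, edgeR).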

How the data were processed

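Raw gene counts were deposited by the authors as 1 table for 4 libraries of polyadenylated RNA. Alignment to the mm10 build, per the submitters' processing notes, involved HISAT2 2.1.0, with StringTie 2.1.3b, Trimmomatic 0.38, FastQC and edgeR also listed. The labels' protocols name 2 library kits, a SMARTER and a stranded TruSeq kit, without saying which library used which, and whether counting used the strand is not given in the sources used here.

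Libraries were grouped by title as siHells and siControl. The counts (17194 genes, lowest value 1) were filtered with filterByExpr (minimum count 10 in 2 libraries, minimum total 15), which left 15651 genes, scaled by TMM and compared with edgeR 4.0.16 (quasi-likelihood test, robust, Benjamini-Hochberg adjustment over all genes tested, threshold 0.05) in R 4.3.3. The common biological coefficient of variation was 0.0418 with 2 residual degrees of freedom. Alternatives were DESeq2 1.42.0, limma 3.58.1 (voom), other scalings and filters, a test against a 1.5-fold change, a replicate block and each library left out. The edgeR step was tested on simulated data. Ratios of summed counts have exact binomial (Clopper-Pearson) 95% intervals.

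Members, role classes and gene lists were chosen with earlier results of these data known. Every member is named except 1 that is not reported here, which stays in the counts and sums. Those called with at least a 2-fold difference, and the 6 most abundant of the others, are given with the count in every library, as are up to 4 genes per signalling list with the smallest p. Positions and exon lengths came from GENCODE M21 (GRCm38), which matched 58 of the 59 members (Gpr31c was not matched), and promoter windows from RefSeq (GRCm38.p6), which held 43 members. Library totals ran from 48873635 to 55642819 counts. Ratios with intervals are given for Adgrf1, Adgrf3, Gpr63 and the Gpr31 genes. Other members with a group mean under 50 counts, such as Adgrd1, Adgrg2, Gpr161 and Gpr179, are given without them.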

Additional observations from a re-analysis of the deposited data

How the results depend on the processing

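The test against a 1.5-fold change, which asks for more than a difference from 0, gave 12 members higher and 12 lower in siHells, against 21 and 17 for the test against no change. Over all genes it gave 1261 higher and 1096 lower, against 4541 and 4612 (15.1% of all genes called), and over the signalling lists 36 higher and 16 lower, against 65 and 33. Adgre1 was among the members no longer called there (adjusted p = 0.0976, edgeR). Under library totals in place of TMM, all genes gave 3773 higher and 5508 lower, with a shift of the all-gene median by -0.0734, and members gave 21 higher and 19 lower. DESeq2 called 19 members higher and 15 lower, voom 21 and 17. Leaving out each library in turn gave 19 to 22 members higher and 14 to 17 lower, 3796 to 4442 genes higher and 3999 to 4442 lower, and 60 to 66 signalling genes higher and 29 to 33 lower. Of the 38 called members, 0 changed sign in any of these fits, and 33 kept their call in every fit other than the 1.5-fold test in which they were tested. The exceptions were Gpr160, Gpr89, Gpr31c, Gpr63 and Gpr34. Requiring 1 CPM or more in 2 libraries gave 16 members higher and 17 lower, since it removed Adgrd1, Gpr179, Gpr31b, Gpr31c and Gpr63, and DESeq2 gave no adjusted p for Gpr31c and Gpr63.

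Signs turned in members that were not called. With library totals, Gpr155 was at -0.031, Gpr19 at -0.014 and Gpr180 at -0.072, and Gpr180 was at -0.0029 with no filter and -0.00028 with voom. Without 1 library, the log2 fold change ran from -0.062 to 0.043 for Adgrl1, -0.18 to 0.034 for Gpr137c, -0.53 to 0.040 for Gpr153, -0.042 to 0.14 for Gpr155, -0.071 to 0.076 for Gpr180, -0.071 to 0.22 for Gpr19 and -1.02 to 1.01 for Gpr83. The cause was not tested.

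The libraries of the 2 groups share replicate numbers, but same-numbered libraries did not deviate together (correlation 0.0499), so the number was not taken as a pairing. With the replicate block, 22 members were higher and 17 lower, and 4502 and 4586 of all genes, with Gpr137 called in addition (adjusted p = 0.0415, edgeR).

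With 2 libraries per group, the spread rests on 2 residual degrees of freedom and on sharing across genes. Depth limited the members with few counts, such as Gpr31b, Gpr31c, Gpr63 and Adgrf1 in the lower group, whose intervals are wide and cover counting error only. Overlapping or near-identical genes (Adgre5 with Ddx39, Gpr65 and Gpr84 with antisense transcripts, Gpr89 with Pdzk1, Gpr39 with Lypd1, Gpr137b with Gpr137b-ps, Gpr31b with Gpr31a) leave the assignment of some reads uncertain.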
